A study of Drosophila melanogaster with 12 samples.

Results

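Odorant-binding protein (Obp) genes were followed across whole-fly arrays of Drosophila melanogaster. Members were all probe sets with a single gene symbol that starts with Obp and a digit, with the brightest probe set kept for each gene. This gave 35 genes, each with 1 probe set, of 10844 genes with a single symbol on the array. RefSeq's gene table lists 51 such symbols. The flies were wild type (WT) for dU2AF50, or carried its S284Y mutation, and were kept at 25C or 30C, which the labels call the permissive and the restrictive temperature. dU2AF50 is the large subunit of the splicing factor that binds the 3' end of introns. Total RNA came from pools of 5 males and 5 females, and each of the 4 groups (WT 25C, S284Y 25C, WT 30C, S284Y 30C) has 3 arrays. The labels give no age, no strain background, and not whether the S284Y flies kept a wild-type copy. The titles place 3 arrays in WT 30C, but the temperature in their descriptions is 25C. Array 1 is moreover described as permissive, and every comparison was repeated with it moved to WT 25C. Nothing in the labels says that the arrays of a group came from separate pools, so p-values measure only the spread between these arrays.

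Odorant-binding proteins are small secreted proteins with a fold held together by disulphide bridges. In antennae and taste organs they fill the fluid around sensory neurons, where they bind odorants and other hydrophobic molecules. The family is not limited to sensing: members are also made in the fat body, in glia and in the male reproductive tract. Many of the genes lie in tandem clusters, and the number in each symbol is the position on the polytene chromosome map. In RNA of whole flies, fewer cells that make a transcript and less transcript per cell cannot be told apart.

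Values are linear probe-set signals, used as already scaled. Differences are log2 fold changes of signal + 16 from limma, with the standard error (SE) of the fit. A gene passed when its Benjamini-Hochberg adjusted p over all 13966 probe sets was under 0.05. Signals of different probe sets do not compare transcript levels between genes, so each gene is compared only with itself across arrays. No detection calls were used. Of the 35 genes, 13 had a mean log2 value at or above the 40th percentile of all probe sets (8.30) and are called the brighter members below, and 22 lay under it. Arrays 2 and 3 of S284Y at 25C stood apart in both directions. They held the highest value of the 12 arrays for 23.7% and 20.3% of all probe sets, and the lowest for 11.6% and 23.5%. For array 3 of S284Y at 30C these shares were 12.6% and 11.1%. Each of the other arrays held the highest value for 4.18% to 5.71% and the lowest for 4.65% to 7.75%. Without arrays 2 and 3, S284Y at 25C is a single array, and a test that uses it assumes that it varies like the other groups. The spread differed between the brighter and the dim members, except in S284Y at 25C. In WT at 25C the median SD of log2 values was 0.10 for the brighter members and 0.65 for the dim ones. In S284Y at 25C it was 0.64 and 0.63. Over all probe sets at or above the 40th percentile it was 0.51 in S284Y at 25C and 0.16 to 0.19 in the other groups. The fit uses a spread shared by all groups. For such probe sets it is typically too small for S284Y at 25C and too large for the others.

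The brightest probe set was that of Obp99c, a member of the Minus-C class, which lacks a pair of the family's conserved cysteines. Its signals were 12243, 16266 and 13394 in WT at 25C, 10971, 14684 and 25379 in S284Y at 25C, 11173, 10228 and 12480 in WT at 30C, and 7856, 8179 and 5651 in S284Y at 30C. The S284Y 30C arrays were the lowest of all 12. Obp99a of the same class, Obp56d, an antennal protein, Obp56g, made in the labellum and the male ejaculatory bulb, Obp44a, made in glia, and Obp19d, of antennae and taste organs, were the next brightest. At the other end, Obp46a, Obp58c and Obp58d of the Plus-C class, which has extra cysteines, had group means between 12.3 and 50.9. Many of those signals are near the 16 added to each value, though Obp46a reached 125.9 on array 3 of S284Y at 25C. Without detection calls, whether they lie above background cannot be told. Of the 8 measured antennal members, Obp19d, Obp56d and Obp83b were among the brighter ones, and Obp19a, Obp28a, Obp59a, Obp69a and Obp84a were dim.

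**Figure D1:**
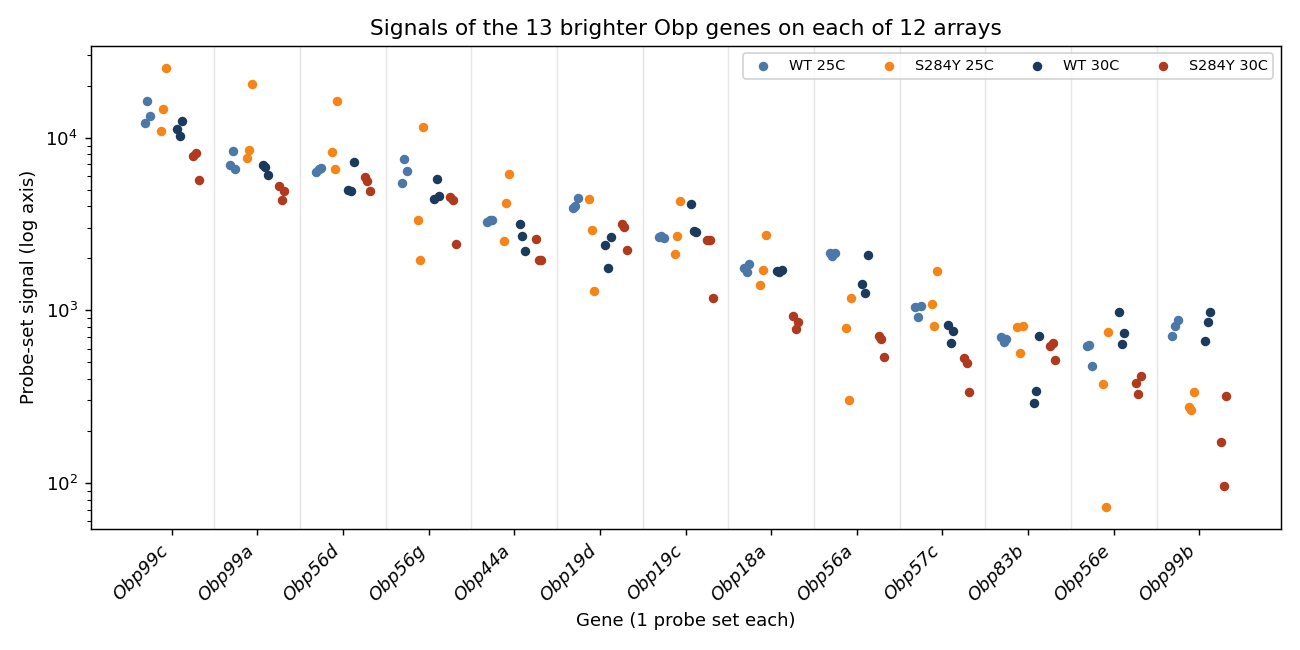
Signal of the 13 brighter Obp genes (log axis) on each of the 12 arrays, coloured by group, 1 point per array. Obp99b and Obp56a lay lower in both S284Y groups than in WT at the same temperature, and array 3 of S284Y at 25C is the highest point for 9 of the 13 genes.

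Obp99b and Obp56a were lower in S284Y than in WT flies at both temperatures. Obp99b, known as a gene with male-biased expression in the fat body of the head, had signals of 710, 816 and 881 in WT at 25C and 276, 263 and 337 in S284Y at 25C. At 30C they were 660, 859 and 982 in WT and 172, 96.0 and 317 in S284Y. The genotypes did not overlap at either temperature. The difference was -1.41 ± 0.362 (SE) at 25C, which did not pass (limma adjusted p = 0.108), and -2.13 ± 0.362 at 30C, a 4.38-fold fall that did (adjusted p = 0.00904). Averaged over both temperatures Obp99b fell by 1.77 ± 0.256 on the log2 scale (3.42-fold, adjusted p = 0.00181). At 30C, dropping array 2 (adjusted p = 0.0583) or array 3 (0.0618) of the WT 30C group ended the call.

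Obp56a, the first gene of the cluster at position 56, had signals of 2141, 2066 and 2154 in WT at 25C against 787, 302 and 1171 in S284Y. At 30C they were 1414, 1263 and 2104 against 712, 686 and 539. Again the genotypes did not overlap at either temperature. The average fall was 1.46 ± 0.267 on the log2 scale (2.76-fold, limma adjusted p = 0.00901). Taken singly, neither temperature passed: -1.67 ± 0.378 at 25C (adjusted p = 0.0648) and -1.26 ± 0.378 at 30C (adjusted p = 0.151). Without S284Y 25C array 3, both did (-2.08, adjusted p = 0.00383, and -1.26, adjusted p = 0.0205). At 25C the call also appeared without array 1 (adjusted p = 0.0320), and at 30C without array 2 (0.0136) or in the fit of only the 6 arrays compared (0.00664).

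These were the 2 of 35 members called in the averaged comparison, both lower, where 2.08% of all probe sets were called lower and 0.938% higher. The same 2 were the members with no overlap between genotypes at both temperatures, against 2.71% of all probe sets lower and 1.79% higher at both. In each fit that left out 1 array, and in every other alternative run, Obp99b and Obp56a kept their calls in the averaged comparison (highest adjusted p 0.00902 and 0.0333).

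Most listed fat body genes moved the same way as Obp99b. Of 11 measured fat body markers 7 were called lower and 0 higher in the averaged comparison, against 2.08% and 0.938% of all probe sets. In sign, 10 of the 11 were below 0 (median -0.70; 0.00 over all probe sets), and the highest value was 0.38. The list was chosen with earlier results of these data known. Their summed signal was 42550 to 46139 in WT and 23972 to 28658 in S284Y at 25C, and 37648 to 40634 and 16375 to 18874 at 30C. The storage protein gene Lsp2 fell by 1.98 ± 0.175 on the log2 scale (adjusted p = 3.0e-05), and tobi, a glycosidase gene under insulin control, by 2.52 ± 0.222 (adjusted p = 3.0e-05). Male accessory gland markers, which report the share of male tissue, had 0 of 11 called in that comparison (median -0.01). Their summed signals overlapped between genotypes at 25C (47339 to 71263 in WT, 47499 to 138058 in S284Y) and at 30C (49788 to 58358 and 32823 to 53282). Female yolk and eggshell markers had 0 of 13 called (median 0.36), with 2 of the 13 below 0. Their summed signal overlapped at 25C, where S284Y array 2 stood at 1509451 and the 5 others at 375800 to 537557, but not at 30C (252136 to 355541 in WT, 373523 to 420269 in S284Y). Photoreceptor markers, which report the share of head tissue, had 0 of 6 called (median -0.18). All 6 were below 0 (-0.25 to -0.05), against 49.4% of all probe sets. The part of fat body, male, female or head tissue in the values of Obp99b was not tested.

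At 30C, the genotype comparison called 3 of 35 members, all lower in S284Y: Obp99b, Obp18a and Obp83cd. Over all probe sets 1.17% were called lower and 0.351% higher. Obp18a had signals of 1682, 1673 and 1717 in WT and 932, 783 and 855 in S284Y, so the groups were far apart and narrow. It fell by 0.97 ± 0.217 on the log2 scale (1.96-fold, limma adjusted p = 0.0453). At 25C its signals overlapped between genotypes, at 1752, 1671 and 1851 in WT and 1404, 1718 and 2742 in S284Y (0.10 ± 0.217, adjusted p = 0.864).

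Obp83cd encodes a protein with a pair of odorant-binding domains in 1 chain. It was dim, with signals of 164, 164 and 188 in WT at 30C and 57.6, 46.5 and 36.0 in S284Y at 30C. The difference was -1.60 ± 0.363 (adjusted p = 0.0493). The WT 30C arrays stood above all 9 others, since WT at 25C gave 53.5, 80.5 and 44.3 and S284Y at 25C 53.3, 100.1 and 80.4. Its neighbour Obp83ef, the other gene for a protein of this double form, also had its highest group mean in WT at 30C (mean signal 282 ± 16.6, SD, n = 3, against 114 ± 71.6 in S284Y). It did not pass (-1.39 ± 0.596, limma adjusted p = 0.396).

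The calls of Obp18a and Obp83cd at 30C stood close to the threshold. Both were lost when any 1 array of WT 25C, WT 30C or S284Y 30C was left out, with adjusted p between 0.0770 and 0.178 for Obp18a and between 0.0660 and 0.200 for Obp83cd. Moving WT 30C array 1 to 25C also ended them (0.121 and 0.240), as did median centring (0.150 and 0.0694). That of Obp18a was also lost without the mean-variance trend (0.104), and that of Obp83cd under quantile normalization (0.0535) and with 1 added in place of 16 (0.0671). Without S284Y 25C array 3, which is not in this comparison but enters the shared spread, 6 members were called, all lower. Obp56a, Obp99a and Obp99c joined the 3 above. Without both arrays 2 and 3 of S284Y 25C there were 8, again all lower, with Obp56e and Obp57c added and 0 lost. Calls rose over all probe sets too, with 3.66% called lower without array 3 and 5.30% without both, against the 1.17% above.

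Beyond the calls, 11 of the 35 members (31.4%) had all 3 S284Y 30C arrays under all 3 WT 30C arrays, and 0 had them above. Over all probe sets 13.3% lay lower and 14.8% higher in this way. Among the 13 brighter members 8 were lower (Obp18a, Obp19c, Obp56a, Obp56e, Obp57c, Obp99a, Obp99b and Obp99c), and 0 higher, against 16.8% and 19.6% of the 8380 probe sets of that brightness. The median difference was -0.21 over the 35 members and -0.66 over the 13 brighter ones, against 0.03 and 0.04 over all probe sets and those of that brightness. Obp56e, a seminal fluid protein gene, had signals of 971, 641 and 742 in WT and 379, 325 and 417 in S284Y at 30C (-1.03 ± 0.573, adjusted p = 0.596). Its value at 25C was -0.98 ± 0.573, with the S284Y arrays at 375, 72.6 and 745, wide enough to overlap the WT arrays at 621, 632 and 476. That value was -0.11 without S284Y array 2 and -1.66 without array 3.

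**Figure D2:**
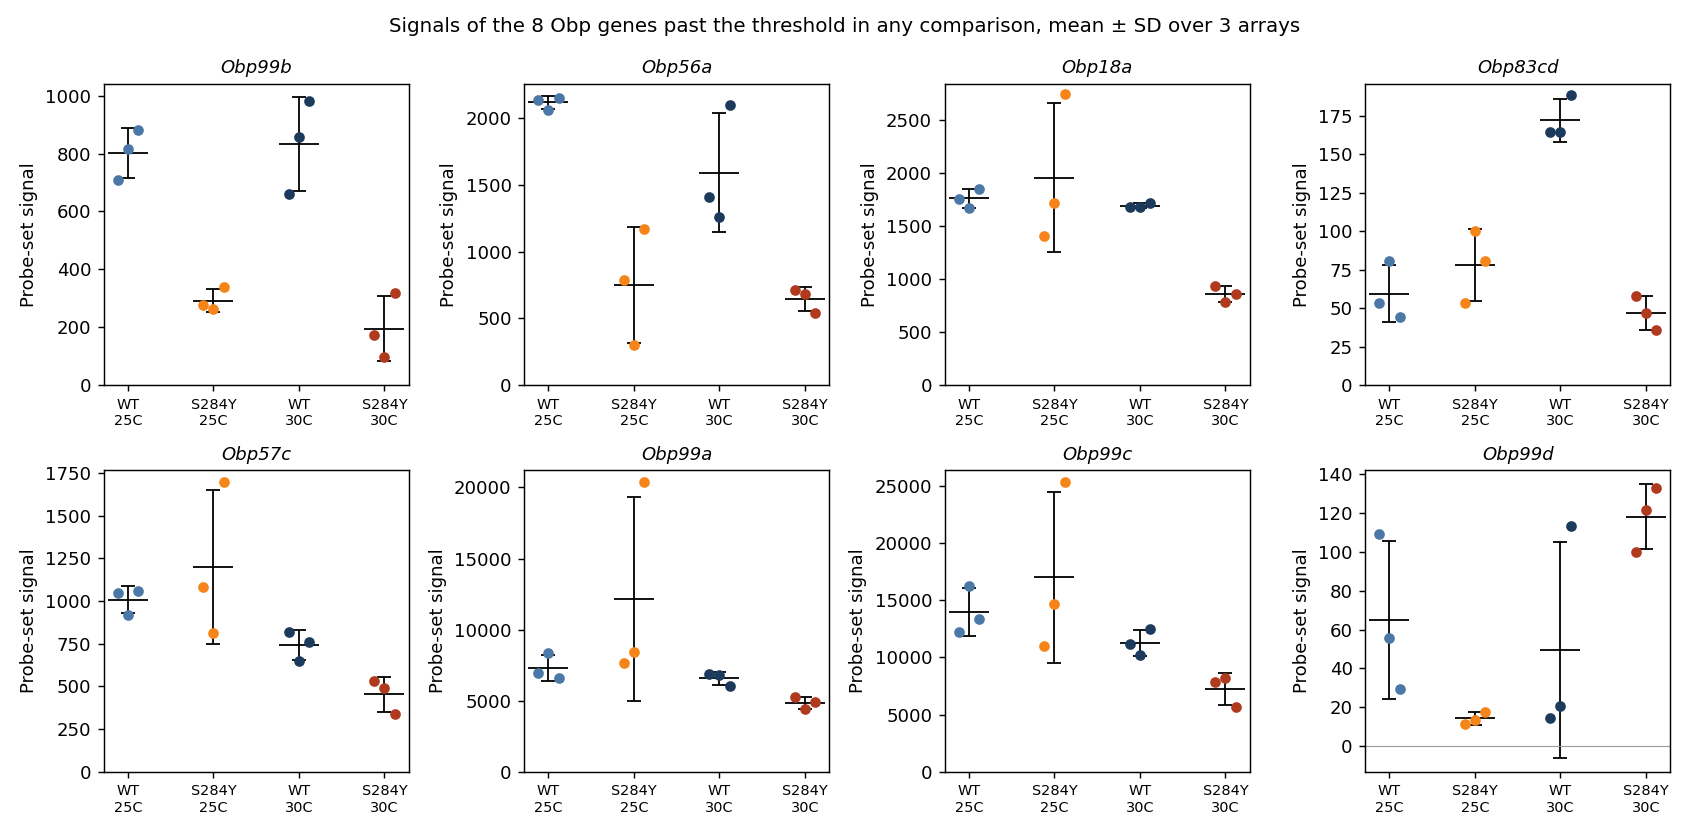
Signals of the 8 Obp genes past the threshold in any comparison, 1 point per array on linear axes, with bars for the mean ± SD over 3 arrays. Obp99b and Obp56a separate by genotype at both temperatures, Obp18a is lowest in S284Y at 30C, Obp83cd is highest in WT at 30C, and the spread of Obp57c, Obp99a and Obp99c is widest in S284Y at 25C.

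At 25C, 0 of 35 members passed in the genotype comparison, where 0.473% of all probe sets were called lower and 0.315% higher. With limma's unadjusted p under 0.05 there were 6 (Obp47b, Obp56a, Obp69a, Obp93a, Obp99b and Obp99d), against 13.9% of all probe sets. After Obp56a and Obp99b, the brighter members with the largest differences were Obp56e and Obp19d. Obp19d gave 3911, 4039 and 4455 in WT and 4396, 2915 and 1293 in S284Y (-0.69 ± 0.342, adjusted p = 0.389). Its S284Y arrays ran from within the WT range to far below it, and the value was -0.20 without array 3 and -1.08 without array 1. Against array 1 alone, which lies within the WT range, it was 0.09. The dim genes Obp93a (2.22), Obp69a (1.47) and Obp47b (1.22) lay higher in S284Y without overlap, with adjusted p from 0.205 to 0.302. These 3 and the 3 that lay lower in this way (Obp56a, Obp99b and Obp99d) are 8.57% of the members each, against 7.53% and 7.15% of all probe sets.

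Within S284Y flies, 5 of 35 members were called between 30C and 25C. Obp18a, Obp57c, Obp99a and Obp99c fell and Obp99d rose, where 2.18% of all probe sets were called lower and 1.82% higher. Obp57c, of the cluster at position 57, had signals of 1082, 816 and 1698 at 25C and 529, 493 and 338 at 30C (-1.33 ± 0.274, limma adjusted p = 0.0274). Obp99a had 7618, 8441 and 20398 at 25C and 5238, 4381 and 4892 at 30C (-1.18 ± 0.292, adjusted p = 0.0440). In total 8 members (22.9%) had all 3 arrays at 30C under those at 25C and 1 (2.86%) above, against 13.4% and 12.9% of all probe sets. Array 3 at 25C was the highest for Obp57c and Obp99a, and the 30C arrays lay under all 3 arrays at 25C with or without it. Obp18a fell by 1.12 ± 0.217 on the log2 scale (adjusted p = 0.0243) and Obp99c by 1.16 ± 0.269 (adjusted p = 0.0384). The Minus-C gene Obp99d went the other way, from 11.5, 13.6 and 17.7 at 25C to 100.1, 121 and 133 at 30C (2.15 ± 0.530, adjusted p = 0.0440). Its 25C signals are at the level of the added 16, and the value ran from 1.22 to 2.98 over the alternatives.

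These calls rest on few arrays. All 5 were lost in the fit of only the 6 arrays compared (adjusted p 0.299 for the 4 that fell and 0.292 for Obp99d), where 0 probe sets in all were called. A fit without the mean-variance trend ended all 5 too (0.0554 to 0.0872). Moving WT 30C array 1 to 25C ended those of Obp99a (0.0551), Obp99c (0.0524) and Obp99d (0.0570), and median centring those of Obp99a (0.0665) and Obp99c (0.0559). All 5 were also lost when any 1 of the 3 S284Y 30C arrays was left out. Without S284Y 25C array 3, all 5 kept their calls with smaller falls of the 4 genes, from 0.73 for Obp99a to 1.05 for Obp57c. With array 1 as the single S284Y 25C array, Obp57c passed (-1.25, adjusted p = 0.0488). So did dim Obp47b, whose signal was 232.7 on that array and 86.4 and 56.3 on arrays 2 and 3. Obp18a was then at -0.71 (adjusted p = 0.0502), Obp99a at -0.66 (0.0703), Obp99c at -0.62 (0.182) and Obp99d at 2.28 (0.182). Leaving out any 1 WT 25C or WT 30C array ended the calls of Obp99a (adjusted p 0.0662 to 0.0724) and Obp99c (0.0565 to 0.0651), and leaving out WT 30C array 2 that of Obp57c (0.0503). That of Obp99d was lost without each of these WT arrays except WT 30C array 3 (0.0564 to 0.0673). Leaving out S284Y 25C array 2 ended those of Obp99c (0.0527) and Obp99d (0.0704).

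Array 3 of S284Y at 25C stood apart for the brighter members. It was the highest of the 12 arrays for 9 of the 13 (69.2%), against 24.4% of all probe sets of that brightness. It was the lowest for 1 of the 13 (7.69%), against 32.9% of those probe sets. Relative to the WT 25C mean, the median of the 13 was 0.69 on that array, against -0.34 and -0.27 on arrays 1 and 2 of the same group. The median over all probe sets of that brightness was -0.09 on it. The summed signal of male accessory gland markers was also highest there, at 138058 against 47696 and 47499 on arrays 1 and 2. That of Obp56g was 11516 on array 3 and 3336 and 1947 on arrays 1 and 2. Without array 3, Obp56g was lower in S284Y in the averaged comparison (-0.87, limma adjusted p = 0.00997), and Obp18a and Obp56e were called lower too. Calls rose over all 13966 probe sets as well, to 651 lower and 403 higher, against 291 and 131 with all arrays. For Obp56g the fit of all arrays gave -0.51 ± 0.340 (adjusted p = 0.535), and without array 2 it was -0.24 (adjusted p = 0.719). The part of male tissue in these signals was not tested.

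On each of the 3 S284Y 30C arrays all 13 brighter members lay under their WT 25C mean, with medians of -0.49, -0.74 and -1.03. Of all probe sets of that brightness, 44.9% to 45.7% did so. On the WT 30C arrays 11, 10 and 8 of the 13 lay under it, with medians of -0.29, -0.29 and -0.03, against 46.3% to 47.0% of those probe sets.

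**Figure D3:**
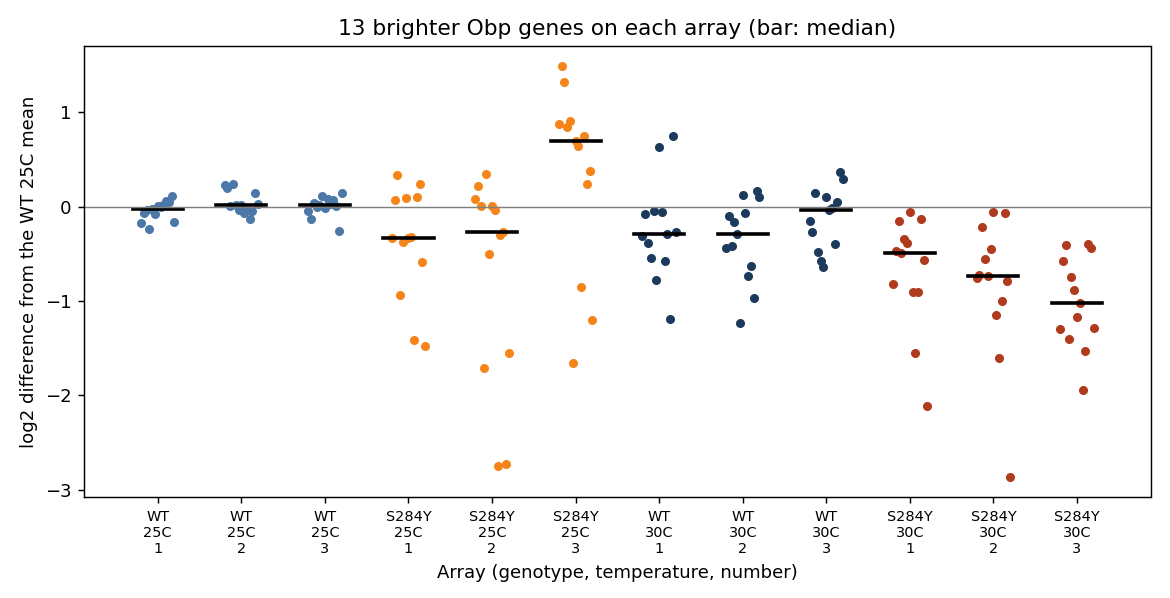
Log2 difference of each of the 13 brighter Obp genes from its WT 25C mean, by array, with a bar at the median. All 13 lie under 0 on the 3 S284Y 30C arrays, and the median of array 3 of S284Y at 25C (0.69) is the highest of the 12 arrays.

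In WT flies, 0 of 35 members passed between 30C and 25C, where 0.0931% of all probe sets were called. With an unadjusted limma p under 0.05 there were 5 (Obp19d, Obp73a, Obp83b, Obp83cd and Obp84a), against 6.49% of all probe sets. Obp19d had signals of 3911, 4039 and 4455 at 25C and 2393, 1748 and 2644 at 30C, with no overlap (-0.89 ± 0.342, adjusted p = 0.688). It was called in the fit of the 6 WT arrays alone (limma adjusted p = 0.0254). That fit called 99 of all 13966 probe sets lower and 79 higher, against 9 and 4 in the fit of all 12 arrays. Obp83b, the antennal protein OS-E, gave 704, 658 and 684 at 25C and 289, 341 and 707 at 30C (-0.70 ± 0.312, adjusted p = 0.749), so that array 3 alone was as high as the 25C arrays. The value was -1.08 without that array and -0.46 without array 1. Obp28a, an abundant antennal protein, gave 145, 114 and 127 at 25C and 70.6, 74.5 and 71.9 at 30C (-0.71 ± 0.390, adjusted p = 0.820). In all, 8 members lay lower at 30C with no overlap (22.9%; 12.2% of all probe sets) and 4 higher (11.4%; 11.3%). With WT 30C array 1 moved to 25C, 0 members passed.

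By role, the antennal members showed no call in any comparison. Of 9 listed, 8 were measured: Obp19a, Obp19d, Obp28a, Obp56d, Obp59a, Obp69a, Obp83b and Obp84a. In WT, 7 of these 8 had a value under 0 between 30C and 25C (median -0.65; -0.02 over all probe sets), against 52.4% of all probe sets. In S284Y 4 of 8 did (median -0.10), against 54% of all probe sets. Between genotypes their medians were -0.16 at 25C and 0.37 at 30C, where 1 of 8 was below 0. Among the other 27 members the genotype value at 30C was below 0 in 20, against 47.2% of all probe sets. Of 7 genes listed for the male reproductive tract 3 were measured (Obp8a, Obp56e and Obp56g), with 0 called. Their averaged genotype differences had adjusted p of 0.994, 0.266 and 0.535. Of 4 taste organ genes only Obp19b was measured, with all 4 pairwise group differences between 0.15 and 0.19.

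By position on the map, Obp99a, Obp99b and Obp99c all lay lower in S284Y at 30C without overlap (-0.45, -2.13 and -0.66), and Obp99d had a value of 1.35. Over all probe sets 13.3% lay lower in this way. Between 30C and 25C in S284Y the same 4 genes had values of -1.18, -0.68, -1.16 and 2.15. Differences between these genes were not tested. At position 56, 6 genes were measured and all 6 were below 0 in S284Y at 30C (-1.26 to -0.04), against 47.2% of all probe sets. Of these 6, Obp56a was the 1 called, and only in the averaged comparison. At position 19, Obp19a, Obp19b, Obp19c and Obp19d follow each other as protein-coding genes, and 0 of the 4 was called in any comparison. Their values between 30C and 25C in WT ran from -0.89 to 0.28. The 3 Plus-C genes at position 58 were dim, with 0 calls. At the shares called over all probe sets, 0 calls among so few genes set no role or position apart.

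The test of whether the temperature difference depended on genotype called 0 of 35 members, as it called 0 of all 13966 probe sets. With an unadjusted limma p under 0.05 there were 7 members (Obp18a, Obp47b, Obp57c, Obp83cd, Obp99a, Obp99c and Obp99d), against 8.07% of all probe sets. The largest interaction values among members with a bright group were -1.07 ± 0.307 for Obp18a (adjusted p = 0.539), -1.03 ± 0.413 for Obp99a (0.605), a 2.01-fold change of opposite sign for Obp19d (0.622) and -0.89 ± 0.388 for Obp57c (0.607). Without S284Y 25C array 3 the value of Obp99a was -0.58 and that of Obp19d 0.52. With array 1 as the single S284Y 25C array they were -0.51 and 0.22, and that of Obp18a was -0.65. Leaving out array 1 instead gave larger values, -1.27 for Obp18a (limma adjusted p = 0.0587) and 1.40 for Obp19d (0.12). That fit called 63 of all 13966 probe sets higher and 21 lower, and 0 of the 35 members. A different response to temperature in the 2 genotypes was therefore not shown for any Obp gene, including Obp18a, whose genotype call was made at 30C and not at 25C.

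**Figure D4:**
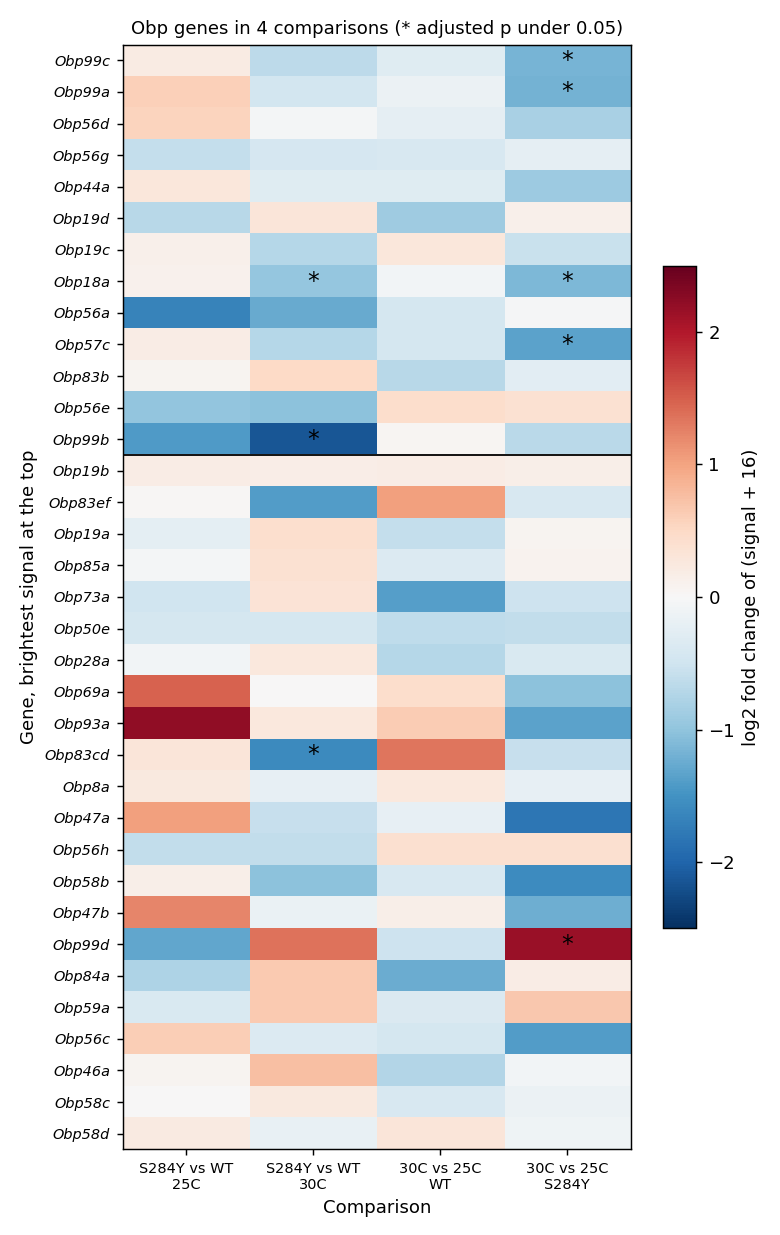
Log2 fold change of signal + 16 for all 35 Obp genes (rows, brightest at the top; the line separates the 13 brighter ones) in 4 comparisons (columns), with a star where limma's adjusted p was under 0.05. Blue stands for lower values. The 3 stars at 30C between genotypes and 4 of the 5 between temperatures in S284Y mark falls, and the other columns hold no star.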

How the data were processed

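Total RNA of whole flies was measured on 1-colour Affymetrix-type arrays, 12 in 4 groups of 3 taken from the sample titles. The deposited table holds 1 intensity per probe set and array, a linear signal. The sources used here do not state how the authors made it. Their 2% trimmed means lay between 1000.12 and 1000.18, so the deposited table was used as already scaled. The number of arrays limits the precision.

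Of 14010 probe sets, 44 controls were left out. Symbols came from GEO's platform annotation (12443 probe sets with 1 symbol, 327 with several, 1196 with none), and 12394 were updated through Entrez numbers to RefSeq. limma 3.58.1 in R 4.3.3 fitted 4 group means to log2(signal + 16) on all 12 arrays, with 6 contrasts and eBayes with a mean-variance trend. P-values were adjusted over all 13966 probe sets. The offset shrinks fold changes of dim probe sets. The script was tested on simulated data. With 3 arrays against 3, the smallest p an exact permutation test allows is 0.10.

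The members and lists were chosen with earlier results of these data known, and the role lists come from general knowledge. Genes named with full values are those called in any contrast, the 4 largest differences per contrast with a group mean at or above the 40th percentile, the 6 brightest and the 3 dimmest. Obp83ef, Obp28a, Obp93a, Obp69a and Obp47b were chosen after their values were seen. Alternatives were offsets 1 and 64, quantile normalization, median centring, a filter on the dimmest 40%, eBayes without trend, only the arrays compared, a replicate block, moving WT 30C array 1, all Obp probe sets, leaving out both S284Y 25C arrays 2 and 3, and leaving out each array.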

Additional observations from a re-analysis of the deposited data

How the results depend on the processing

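The number of Obp genes called changed with the arrays in the fit. Without both S284Y 25C arrays 2 and 3 that group is 1 array, assumed to vary like the other groups. At 25C between genotypes it was 0, with 0 to 2 when 1 array was left out and 2 without both S284Y 25C arrays 2 and 3. At 30C it was 3, with 0 to 6 when 1 array was left out, 1 under median centring, the replicate block or with WT 30C array 1 moved, 7 with only the arrays compared, and 8 without both arrays 2 and 3. Averaged over temperatures it was 2, with 2 to 5 when 1 array was left out and 6 without both. Between temperatures in S284Y it was 5, with 0 to 7 when 1 array was left out, 3 under median centring, 0 without trend or with only the arrays compared, 1 with the replicate block, and 2 with WT 30C array 1 moved or without both. In WT it was 0, and 1 with only the arrays compared or without both. The interaction stayed at 0 in every alternative run. Using all Obp probe sets changed nothing, since each gene has 1.

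Over all probe sets the counts were 110 (17 to 885 over the alternatives), 213 (82 to 1278) and 422 (235 to 1054) for genotype at 25C, at 30C and averaged. They were 559 (0 to 2398) and 13 (0 to 200) for temperature in S284Y and WT, and 0 (0 to 84) for the interaction. Obp19d at 25C turned from -0.69 to 0.09 without both arrays, where array 1 alone is compared. Same-numbered arrays did not deviate together over all probe sets (correlations from -0.13 to 0.06), so no strong shared effect was seen. The labels do not say what the numbers mark, and such correlations cannot tell whether they mark a shared batch. With the replicate block, Obp18a (adjusted p = 0.0753) and Obp83cd (0.0962) lost their calls at 30C, and of the 5 calls between temperatures in S284Y that of Obp18a stayed (0.0447). Signals near the added 16 limit what can be said of the 22 dim members. The causes of these changes were not tested.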

Other observations

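Calls among other chemosensory genes are given against the 0 to 559 of all 13966 probe sets called in either direction in the 6 comparisons. Of 53 odorant receptor genes, 0 passed in any of the 6 comparisons, as did 0 of 28 gustatory receptor genes and 0 of 16 other chemosensory proteins. Of 43 ionotropic receptor genes 1 passed, Ir48b, lower at 30C in S284Y. It was chosen after its value was seen. Most of these probe sets were dim, with 3, 2, 4 and 1 at or above the 40th percentile in that order of the 4 lists (odorant receptors, gustatory receptors, other proteins, ionotropic receptors). The summed signal of the odorant receptor genes was 7828 to 8540 in WT at 25C and 6145 to 6373 in WT at 30C, without overlap. In S284Y it was 6999 to 11900 at 25C and 6161 to 7029 at 30C. The summed signal of the 16 other chemosensory proteins did not overlap in WT either (15694 to 17401 at 25C, 11172 to 14119 at 30C). Nor did that of the female yolk and eggshell markers (375800 to 537557 and 252136 to 355541). The sums of gustatory and of ionotropic receptor genes overlapped in WT.

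Further probe sets of the family are outside the 35. The gene lush, whose protein is needed to sense the male pheromone cVA, lies under its own name. It had signals of 66.2, 189 and 61.8 in WT and 137, 214 and 17.5 in S284Y at 25C, and 108, 20.6 and 106 in WT and 94.9, 67.4 and 13.4 in S284Y at 30C, so all groups overlapped. A probe set shared by Obp50b and Obp50c, for which the gene cannot be told, differed by -1.77 between 30C and 25C in S284Y (limma adjusted p = 0.0840). One shared by Obp57d and Cpr57A had values between -0.53 and 0.44 in the 4 pairwise comparisons.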
